A study of Mus musculus with 12 samples.

Results

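The small RNAs described here came from the mitochondrial genome of the mouse hippocampus. They are the sequenced tags that matched, without a mismatch over their whole length and on the sense strand, a transcript of 1 of the 37 GENCODE genes whose symbol starts with mt-, and that matched no miRNA hairpin. The genes comprise 22 tRNA genes, 2 rRNA genes and 13 protein genes, out of 1799 annotated small RNA and mitochondrial genes with at least 1 read. All 37 had reads. Together they held 89153 of 70809892 accepted reads (0.126%), spread over 2397 distinct tags.

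The study sequenced the hippocampal small RNA of individual male mice of the strain C57BL/6NCrl, aged 6 to 8 weeks by the study's methods. Libraries came from untreated mice kept in the home cage (NT) and from mice taken 0.5 h, 1 h, 3 h, 6 h or 24 h after electroconvulsive shock (ECS), a current that depolarizes neurons throughout the brain. Each condition had 1 library in time course 1 (suffix -1) and 1 in time course 2 (suffix -2), 12 libraries in all. The deposited replicate number was taken as the time course. Every RNA sample was cut from a gel in the small RNA range that starts at about 18 nt, so longer tRNA pieces were largely left out. Tags nevertheless reached 30 nt in the ECS libraries of time course 1, and 34 nt in NT-1 and in all libraries of time course 2. NT-1 thus differed in this from the libraries it is grouped with. Tags below 18 nt were not in the counts. A tag is a distinct insert sequence with its read count. Accepted reads, those with a usable insert, ranged from 1897490 (6h-2) to 7657222 (0.5h-2) per library.

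The mitochondrial genome is read from both strands into long precursor RNAs in which tRNAs sit between the rRNAs and mRNAs. RNase P cuts these precursors at the 5′ end of each tRNA and RNase Z at its 3′ end, after which a separate enzyme adds the bases CCA. Brain tissue is rich in mitochondria, and pieces of mature tRNAs are commonly seen in small RNA libraries.

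A single gene dominated. mt-Ts2, the serine tRNA that reads AGY codons and lacks the D arm found in other tRNAs, held 66457 reads, which is 74.5% of all mitochondrial reads. Its gene lies on the plus strand at chrM:11613-11671 (GRCm38, as are all positions below). The whole transcript is shown first, because the tags are read against it, followed by its 6 most abundant tags. Capitals mark the anticodon, bases 20 to 22.
mt-Ts2 transcript: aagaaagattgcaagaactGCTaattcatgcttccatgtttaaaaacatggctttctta
mt-Ts2 bases 1 to 18 (9191 reads): aagaaagattgcaagaac
mt-Ts2 bases 1 to 19 (29388 reads): aagaaagattgcaagaact
mt-Ts2 bases 1 to 20 (9225 reads): aagaaagattgcaagaactG
mt-Ts2 bases 1 to 21 (4573 reads): aagaaagattgcaagaactGC
mt-Ts2 bases 1 to 22 (5815 reads): aagaaagattgcaagaactGCT
mt-Ts2 bases 1 to 23 (4380 reads): aagaaagattgcaagaactGCTa

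These 6 tags shared the first base of the tRNA and differed at the 3′ end alone. Of the mt-Ts2 reads, 95.4% started at base 1. The lowest share of the 12 libraries was 90.9% (NT-1) and the highest 99.0% (3h-1). The most abundant tag stopped on the base just before the anticodon. The shortest tag counted, 18 nt, already reaches the anticodon loop of this gene, so a tag from base 1 could not end upstream of the loop here.

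The most abundant tags of the other genes with many reads show where in each transcript the small RNAs lay. Capitals again mark anticodon bases, and a tag without capitals does not reach the anticodon.
mt-Tl1 (leucine, UUR codons), chrM:2676-2696, plus strand, bases 1 to 21: attagggtggcagagccagga
mt-Ty (tyrosine), chrM:5296-5314, minus strand, bases 13 to 31: gagtaagcattagactGTA
mt-Ts1 (serine, UCN codons), chrM:6920-6938, minus strand, bases 1 to 19: gagaaagacatataggata
mt-Tq (glutamine), chrM:3825-3842, minus strand, bases 1 to 18: taggataaggtgtttagg
mt-Th (histidine), chrM:11574-11594, plus strand, bases 29 to 49: tGTGaatctgacaacaggaaa
mt-Tv (valine), chrM:1075-1093, plus strand, bases 51 to 69: tgaccaatgaacactctga
mt-Ti (isoleucine), chrM:3706-3724, plus strand, bases 1 to 19: agaaatatgtctgataaaa
mt-Rnr2 (large subunit rRNA), chrM:1094-1113, plus strand, bases 1 to 20: actaatcctagccctagccc
mt-Rnr1 (small subunit rRNA), chrM:70-88, plus strand, bases 1 to 19: aaaggtttggtcctggcct
mt-Co1 (cytochrome c oxidase subunit), chrM:5744-5761, plus strand, bases 417 to 434: aggagcatcagtagacct

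tRNA genes held 79101 reads, 88.7% of the mitochondrial total. The rRNA genes held 8067 reads (9.05%) and the protein genes 1985 reads (2.23%). Per kilobase of transcript, the summed level was 52699 reads for tRNA, 3180 for rRNA and 174 for protein genes. Without mt-Ts2 the other 21 tRNA genes still stood at 8768 reads per kilobase. The tRNA genes ranged from 22 reads (mt-Td, the aspartate tRNA) to 66457. The plot of reads per gene shows the steep order from mt-Ts2 downwards and the place of the tags in each transcript.

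**Figure D1:**
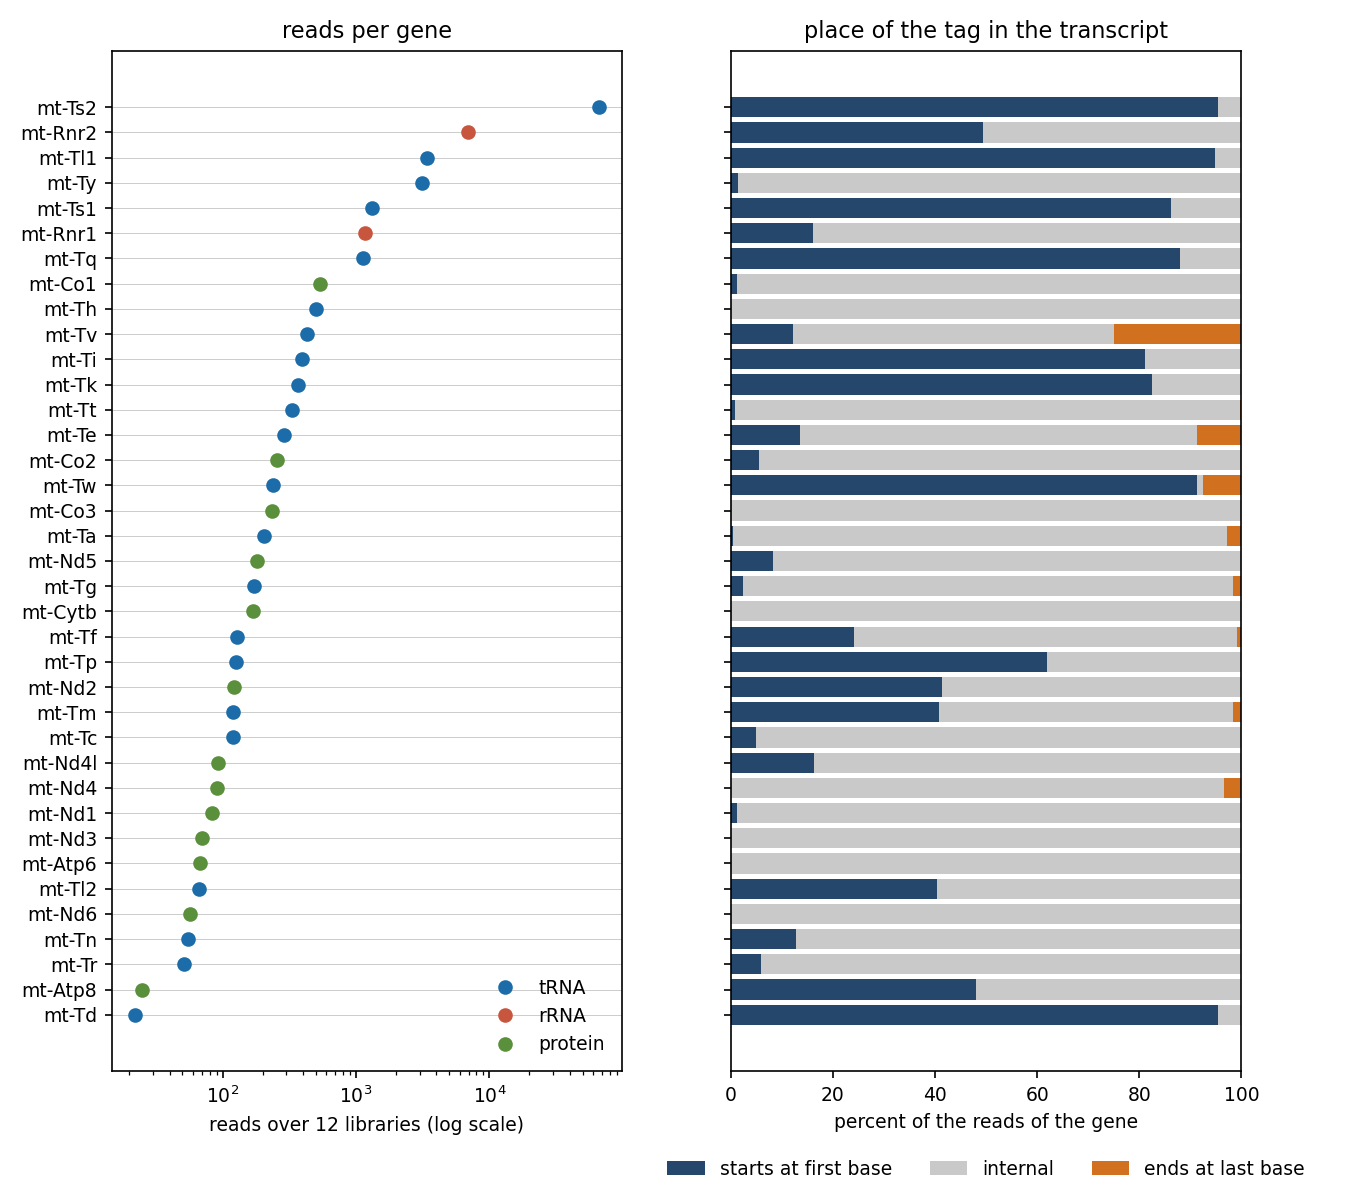
Left, reads of each of the 37 mitochondrial genes summed over 12 libraries on a log axis, coloured by class. Right, the percent of each gene's reads whose tag starts at the first base of the transcript, ends at its last base, or lies between. mt-Ts2 stands at 66457 reads and mt-Rnr2, the next, at 6893, and first-base starts pass 50% in 9 of the 22 tRNA genes.

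Among the tRNA genes, 88.5% of the reads started at the first base of the transcript. This figure was set largely by mt-Ts2: over the other 21 genes it was 52.2%, with 46.6% internal and 1.30% ending at the last genomic base. The internal share in turn leaned on mt-Ty, described below, which held 3133 of these 12644 reads and was 98.6% internal. For 12 of the 22 tRNA genes the most used start was base 1. mt-Tl1 (3424 reads) had 94.8% of its reads there, mt-Tq (1136 reads) 87.9%, mt-Ts1 (1326 reads) 86.1% and mt-Ti (396 reads) 81.1%. mt-Tw (tryptophan, 240 reads) and mt-Tk (lysine, 365 reads) had 91.3% and 82.5%.

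mt-Ty was different in kind. Of its 3133 reads, 98.6% were internal and 59.2% started at base 13, and its leading tag ended on the last anticodon base. Of its reads, 93.8% ended inside the anticodon loop. As many as 3022 of them also matched a transcript of Cep295, a nuclear gene, so their origin could not be assigned from the sequence.

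mt-Th and mt-Tt (threonine) had most of their reads internally as well. mt-Th had no read from base 1, and 26.6% of its reads began at base 29, 1 base before the anticodon. mt-Tt had 98.8% internal reads, with the most used start at base 30, also 1 base before the anticodon. Neither gene therefore followed the first-base pattern of mt-Ts2.

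**Figure D2:**
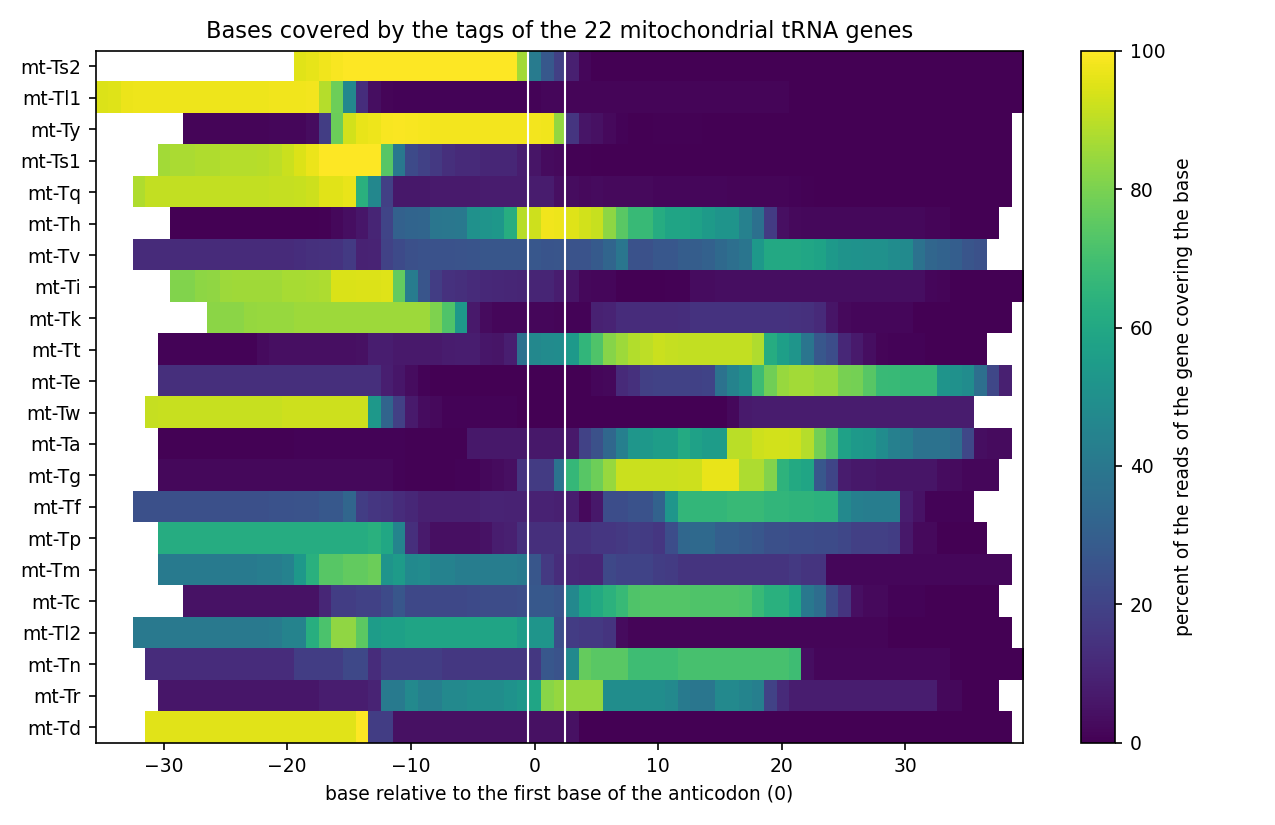
Percent of each tRNA gene's reads, pooled over 12 libraries, that cover a base, with genes ordered by reads and bases aligned on the first anticodon base (0), which lies between the white lines with the other anticodon bases. mt-Ts2 has 19 bases before its anticodon and its reads reach it, while coverage from the first base of mt-Tl1, mt-Tq, mt-Tk and mt-Tw drops before it.

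The distance to the anticodon sets mt-Ts2 apart from the other tRNA genes. It has 19 bases before the anticodon, against 26 to 35 (median 30) over all other tRNA genes. Tags of 18 to 24 nt made up 89.2% (0.5h-2) to 96.3% (3h-1) of the accepted reads. In this range, a tag from base 1 can reach the anticodon loop only in mt-Ts2. Longer tags from base 1 can also reach it elsewhere, as in mt-Tk, which has 26 bases before its anticodon. Of all mt-Ts2 reads, 99.7% ended in the loop, a share that the size range fixes for tags from base 1. Over the other 21 tRNA genes, 26.6% of the reads ended in the loop, most of them from mt-Ty.

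Reads from the 3′ end of tRNAs were rare unless the added CCA was counted. Only 164 reads ended exactly at the last genomic base of a tRNA gene. A further 2032 reads, left out of all other counts here, carried the start or all of CCA after that base, and 92.3% of these had it complete. mt-Tw (939 reads) and mt-Tv (778 reads) held 84.5% of them. The leading tags are shown with CCA in capitals, since these bases are absent from the genome.
mt-Tv with CCA (565 reads, 12 libraries): caatgaacactctgaCCA
mt-Tw with CCA (272 reads, 10 libraries): cacaagtttaacttctgCCA

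mt-Tw thus had reads at both ends: 91.3% of its genomic reads began at base 1, and with the CCA reads included 79.6% of its reads carried CCA. mt-Ts2, with 66457 reads at its 5′ part, had 7 CCA reads.

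mt-Rnr2 held 6893 reads, of which 49.3% began at the first base of the rRNA, the base that directly follows mt-Tv. Its leading tag alone accounted for 27.0% of the reads of the gene. mt-Rnr1 (1174 reads) had 16.1% at its first base. The remaining rRNA reads were scattered, with 654 distinct tags for mt-Rnr2 and 297 for mt-Rnr1.

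The protein genes had few reads, between 25 (mt-Atp8) and 542 (mt-Co1). Per kilobase, the 3 genes for cytochrome c oxidase subunits (complex IV) stood at 342 reads, the cytochrome b gene mt-Cytb (complex III) at 147, the 7 complex I genes at 109 and the 2 ATP synthase genes at 105. Most of the mt-Co1 reads (486 of 542) and all reads of mt-Co2 (254) and mt-Co3 (233) also matched a transcript annotated in the nuclear genome. The level of these genes is therefore uncertain. Over all 37 genes, 5.09% of the reads (4541) had such a second match, 3022 of them in mt-Ty. mt-Ts2, with 74.5% of all mitochondrial reads, had 0 such reads, so the share was higher over the other genes.

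Facts on the whole libraries bear on what follows. The tissue label was checked on miRNA reads: the neural miRNAs miR-124, miR-9, miR-128 and miR-138 had reads in all 12 libraries, with medians of 0.667% to 6.34% of the miRNA reads. Liver miR-122 and red blood cell miR-451a had medians of 0.0122% and 0.00390%, muscle miR-133a of 0.000304%, and muscle miR-1a 0.947%. The time courses differed in length and content. Tags of 18 to 19 nt made up 18.8% ± 15.2 of the accepted reads in time course 1 and 2.80% ± 1.59 in time course 2 (SD, n = 6 each). NT-1 stood apart at 49.0%. Reads that matched miRNA hairpins made up 25.6% ± 8.23 and 57.5% ± 6.35 of the accepted reads (SD, n = 6 each). The part these differences play in the mitochondrial values was not tested.

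The first comparison asked whether the mitochondrial share of the accepted reads differed between the time courses. In time course 1 it was 0.440% in NT-1, 0.113% in 0.5h-1, 0.126% in 1h-1, 0.259% in 3h-1, 0.149% in 6h-1 and 0.0706% in 24h-1. In time course 2 it was 0.118% in NT-2, 0.0962% in 0.5h-2, 0.0957% in 1h-2, 0.0867% in 3h-2, 0.102% in 6h-2 and 0.0406% in 24h-2. NT-1 and 3h-1 were the highest libraries and 24h-2 was the lowest, and the ranges overlapped. As the Wilson 95% interval was 0.433% to 0.447% for NT-1 and 0.0392% to 0.0421% for 24h-2, counting error was small beside these differences, although reads amplified by PCR are not independent molecules.

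The mean was 0.193% ± 0.136 in time course 1 and 0.0900% ± 0.0264 in time course 2 (SD, n = 6 each). The library of time course 2 was lower at 6 of 6 time points, by 0.103 percentage points on average (p = 0.03125, two-sided, by an exact permutation that swapped the pair at each time point in all 64 ways, and the lowest p such a design can give). Adjusted by Benjamini-Hochberg over the 4 single-value tests planned, this exact test gave p = 0.0417. Adjusted over all 32 measures compared between the time courses, the same exact test gave p = 0.0625. With the untreated libraries exchanged, neither the 6 of 6 nor the lowest p of this exact test would hold. The study described a batch effect between its replicates and could not assign it to library construction or to sequencing. It considered accurate miRNA expression changes unlikely to be obtained from these sequencing data. Mouse, library preparation, sequencing and time course change together here and cannot be told apart. Nor can, in bulk tissue, fewer cells of a type and less RNA per cell.

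mt-Ts2 made up most of that difference, -0.0856 of the -0.103 points. Its share was 0.310% in NT-1, 0.0836% in 0.5h-1, 0.0819% in 1h-1, 0.239% in 3h-1, 0.119% in 6h-1 and 0.0537% in 24h-1. In time course 2 it was 0.0852% in NT-2, 0.0780% in 0.5h-2, 0.0723% in 1h-2, 0.0538% in 3h-2, 0.0610% in 6h-2 and 0.0236% in 24h-2. The other 36 genes had 0.0451% ± 0.0429 in time course 1 and 0.0277% ± 0.00966 in time course 2 (SD, n = 6 each), and were higher in time course 2 at 3 of 6 time points. Without mt-Ts2, the difference was -0.0174 points, with an exact permutation p of 0.5.

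The direction of the total depended on tag length. Counting only tags of 20 nt or more, the mitochondrial share was 0.0387% ± 0.0158 in time course 1 and 0.0624% ± 0.0185 in time course 2 (SD, n = 6 each), higher in time course 2 at 4 of 6 time points (exact permutation test, p = 0.125). Tags of 18 to 19 nt gave 0.154% ± 0.136 and 0.0276% ± 0.0168 (SD, n = 6 each). NT-1, with the highest total, had the lowest share of all 12 libraries from tags of 20 nt or more, 0.0279%.

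**Figure D3:**
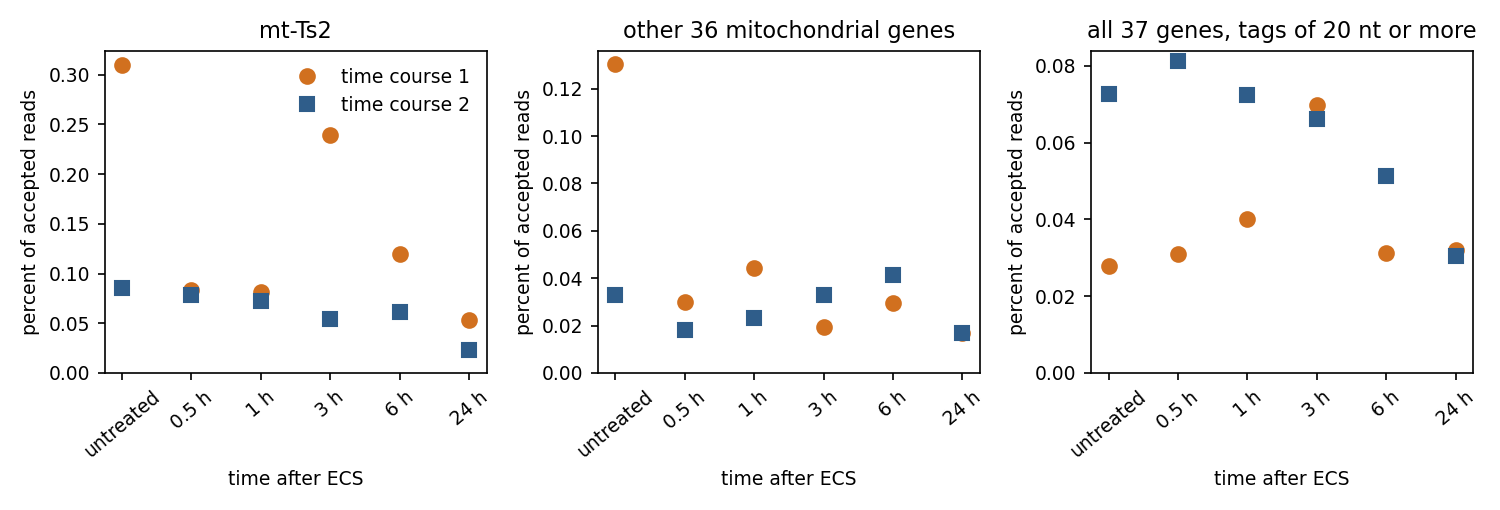
Percent of accepted reads in each of the 12 libraries for mt-Ts2 (left), the other 36 mitochondrial genes (middle) and all 37 genes counted from tags of 20 nt or more (right), by time after ECS, with circles for time course 1 and squares for time course 2. NT-1 stands at 0.310% for mt-Ts2 and 0.130% for the other genes but at 0.0279% on the right.

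The mean length of the mitochondrial tags was 19.1 ± 0.287 nt in time course 1 and 20.6 ± 0.639 nt in time course 2 (SD, n = 6 each). They were longer in time course 2 at 6 of 6 time points, by 1.497 nt (p = 0.03125 by the same exact permutation, and 0.0417 adjusted over the 4 planned tests). Over the 32 measures the adjusted p of this exact test was 0.0625. Over all accepted reads, mitochondrial or not, tags were also longer at 6 of 6 time points, by 0.993 nt. Taken gene by gene, the mean tag length was greater in time course 2 at 6 of 6 time points for mt-Ts2, mt-Tl1, mt-Ty, mt-Th, mt-Rnr2 and mt-Rnr1, and at 5 of 6 for mt-Ts1, mt-Tq, mt-Tv and mt-Ti.

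In mt-Ts2 this length difference was a shift of the 3′ end across the anticodon, in the series of tags printed above. Tags from base 1 that ended at base 19, before the anticodon, made up 58.6% ± 13.6 in time course 1 and 20.3% ± 11.4 in time course 2 (SD, n = 6 each). Those that ended at base 21 or later, on the second anticodon base or beyond, made up 0.406% in NT-1, 11.8% in 0.5h-1, 2.32% in 1h-1, 0.437% in 3h-1, 0.398% in 6h-1 and 18.5% in 24h-1. In time course 2 they made up 46.1% in NT-2, 74.7% in 0.5h-2, 64.9% in 1h-2, 66.9% in 3h-2, 26.3% in 6h-2 and 60.9% in 24h-2. With the deposited numbers the time courses did not overlap in this measure. They would overlap with NT-1 and NT-2 exchanged.

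The difference in that share was 51.0 percentage points and held for all 6 pairs of libraries (exact permutation p = 0.03125). This measure was chosen after its values were seen, and over the 32 measures compared between the time courses the exact test gave an adjusted p of 0.0625. The most frequent last base was 19 in 8 libraries, 23 in 0.5h-2 and 22 in 1h-2, 3h-2 and 24h-2. NT-2 and 6h-2, which kept base 19, also had the shortest mean accepted tags of time course 2, at 21.2 and 21.1 nt. The start of the tags, by contrast, was at base 1 for 95.4% ± 2.86 in time course 1 and 95.2% ± 1.29 in time course 2 (SD, n = 6 each).

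**Figure D4:**
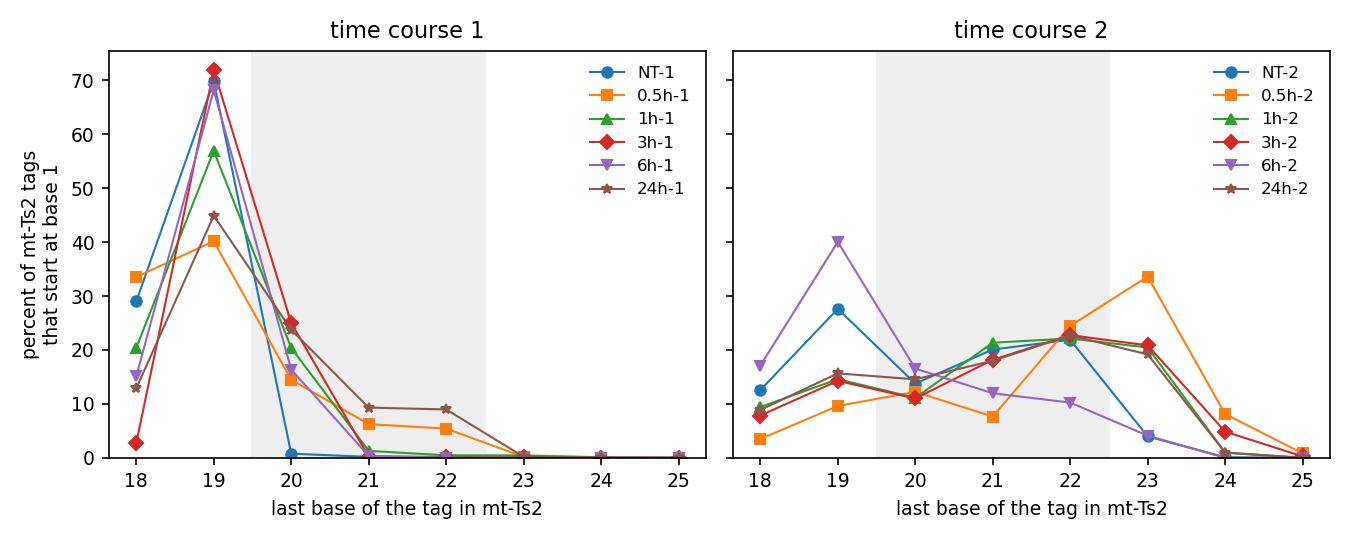
Last base of the mt-Ts2 tags that start at base 1, as percent of those tags, 1 line per library, with time course 1 on the left and time course 2 on the right. The grey band is the anticodon, and ends at base 19 average 58.6% on the left and 20.3% on the right.

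The share of tRNA reads that began at the first base was 87.9% ± 5.26 in time course 1 and 88.1% ± 3.06 in time course 2 (SD, n = 6 each), a difference of 0.188 points (exact permutation p = 0.9375, and 0.9375 adjusted over the 4 planned tests). For the 21 tRNA genes other than mt-Ts2 it was 42.8% ± 3.401 and 62.8% ± 7.08 (SD, n = 6 each). With the deposited numbers it was higher in time course 2 at 6 of 6 time points without overlap. That difference of 19.99 points had an exact permutation p of 0.03125, and 0.0625 when adjusted over the 32 measures. mt-Ty and mt-Tl1 were the largest of these genes and lay on opposite sides of it. mt-Ty, nearly all of it internal, was lower in time course 2 at 6 of 6 time points, and mt-Tl1, nearly all of it from the first base, was higher at 5 of 6.

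Single genes are given in reads per 1000000 accepted reads (RPM). mt-Tl1 had 13.1 (6h-1), a median of 25.8 and 97.2 (NT-1) in time course 1, and 34.2 (0.5h-2), a median of 67.4 and 93.8 (6h-2) in time course 2. mt-Ty had 28.4 (24h-1), a median of 57.0 and 133 (NT-1), against 11.3 (3h-2), a median of 25.4 and 73.9 (NT-2). mt-Ts1 had 9.86 (24h-1), a median of 26.8 and 63.4 (NT-1), against 6.86 (24h-2), a median of 12.5 and 23.7 (6h-2). The ranges overlapped for all 3, and mt-Ts1, like mt-Ty, was lower in time course 2 at 6 of 6 time points.

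For mt-Tq the median RPM was 10.9 in time course 1 and 17.6 in time course 2, and for mt-Th 4.98 and 7.33. It was 5.64 and 4.52 for mt-Tv and 5.14 and 3.49 for mt-Ti. The rRNAs had medians of 81.8 and 63.2 (mt-Rnr2) and 16.3 and 11.1 (mt-Rnr1). The protein genes with the most reads had medians of 6.53 and 4.93 (mt-Co1), 2.82 and 2.05 (mt-Co2), 2.32 and 1.97 (mt-Co3) and 2.31 and 1.78 (mt-Nd5, a complex I subunit). For all of these the ranges of the time courses overlapped. NT-1 was the highest of the 12 libraries for 32 of the 37 genes, and mt-Rnr2 reached 462 RPM there against at most 152 (1h-1) in any other library.

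Counts of 502 features, of which 35 were mitochondrial genes (mt-Atp8 and mt-Td had too few reads), were then compared between the time courses with the edgeR quasi-likelihood test, with time point in the model and TMM scaling, which centres each library on the bulk of its features. At an adjusted p of 0.05, 215 features passed (42.8%), 100 of them lower in time course 2 (19.9%). Of the 35 mitochondrial genes 4 passed, all lower in time course 2, which is a smaller share than that of all features. The log2 fold change was negative for 30 of the 35 with a median of -1.07, against -0.05 over all features, most of which (370) were miRNAs with a median of 0.67. The 65 snoRNAs had a median of -1.40, with 55 negative and 28 called.

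mt-Ts2 fell by 1.17 on the log2 scale (SE 0.47, edgeR adjusted p = 0.0359), and was lower at 6 of 6 time points. The others, named after their values were seen, were mt-Tt (-1.73, adjusted p = 0.0172), mt-Ta, the alanine tRNA (-1.87, adjusted p = 0.0416), and mt-Nd2, a complex I subunit (-2.28, adjusted p = 0.0396). With 1 library left out the call was lost in 9 of 12 fits for mt-Ts2 (adjusted p up to 0.108) and in 7 of 12 each for mt-Ta and mt-Nd2 (up to 0.132 and 0.138), and in 0 of 12 for mt-Tt. mt-Tl1 had the most positive value, 0.94, with an adjusted p of 0.117. The values of mt-Tl1, mt-Tp, mt-Tq, mt-Th and mt-Tm were positive with TMM and negative when libraries were scaled by their counted total, which also moved the median of all features from -0.05 to -1.14. Relative to that median they were above 0 with both scalings, at 0.99 and 0.94 for mt-Tl1.

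The number of genes that passed depended on the scaling. With the counted total of each library, which is mostly miRNA, the median of all features moved to -1.14 and 219 features passed as lower (43.6%) and 50 as higher, against 100 and 115 with TMM. Then 26 mitochondrial genes passed, all lower. With the accepted reads as the library size, an alternative added after seeing the data, 79 features passed as lower (15.7%) and mt-Tt was the only mitochondrial gene among them. Relative to the median of all features, mt-Ts2 stood at -1.13 with TMM and at -1.17 with the counted total. Beside snoRNA reads there was little to separate the time courses, with 104 ± 53.2 mitochondrial reads per 100 snoRNA reads in time course 1 and 97.5 ± 39.7 in time course 2 (SD, n = 6 each, exact permutation p = 0.71875).

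**Figure D5:**
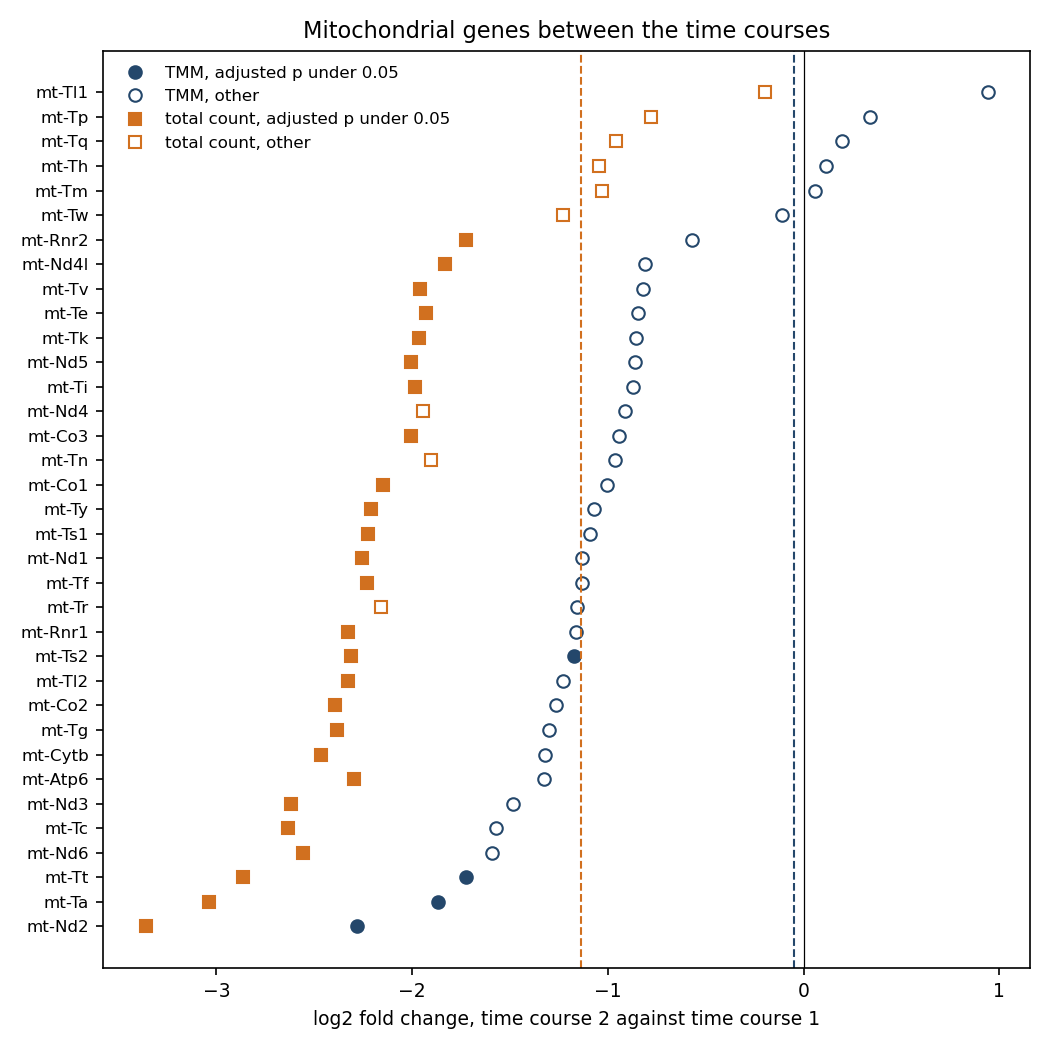
Log2 fold change of 35 mitochondrial genes, time course 2 against time course 1, by edgeR with TMM scaling (circles) and with the counted total (squares), filled where the adjusted p is under 0.05. Dashed lines are the medians of all 502 features, -0.05 and -1.14: 4 circles and 26 squares are filled, and both sets lie mostly left of their line.

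The second comparison asked whether the small RNAs of mitochondria changed after ECS, the question of the study's design. By the deposited numbers, as listed above, the untreated library had the highest mitochondrial share in each time course and the library at 24 h the lowest. NT-1 had 0.440% against a mean of 0.144% over the 5 libraries after ECS, and NT-2 0.118% against 0.0843%. The mean difference within time courses was 0.165 percentage points (p = 0.0278, two-sided, by an exact permutation over the 36 choices of the untreated pair, and the lowest p it can give). Adjusted over the 4 planned tests this exact p was 0.0417.

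The size of this difference depended on NT-1 and on short tags. Without NT-1 it was 0.0340 points, with an exact permutation p of 0.333, where the smallest that the remaining libraries allow is 0.167. With tags of 20 nt or more it was -0.000327 points (exact permutation p = 1). On the log2 scale the exact permutation p was 0.0556.

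By edgeR, none of the 502 features (0.0%) and none of the 35 mitochondrial genes passed at any time after ECS. At an unadjusted p under 0.05 there were 5, 3, 10, 9 and 8 features in order of time, of which 1, 0, 2, 1 and 1 were mitochondrial genes. With time course as a block, pairing the libraries, 0 passed as well. Then 30, 14, 36, 36 and 51 features had an unadjusted p under 0.05, of which 5, 1, 5, 2 and 8 were mitochondrial genes. DESeq2 called 2 features at 3 h, and 0 mitochondrial genes at any time. Each group held 2 mice. In simulated counts edgeR without the block recovered 63 of 97 features changed 8-fold at 24 h and 35 of 98 changed 4-fold. It made 4 false calls there. The simulated counts held no difference between time courses, unlike the real ones, so recovery in the real counts can be lower.

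The fitted log2 changes of the mitochondrial genes lay mostly below 0. Without the time course block, their median was -1.52 (0.5 h), -1.28 (1 h), -1.45 (3 h), -0.67 (6 h) and -2.19 (24 h). Over all features the medians were -0.27, -0.01, -0.25, -0.35 and -0.14, and over the 65 snoRNAs -0.88, -0.70, -1.23, -0.79 and -1.12. With the block, the medians of the mitochondrial genes were -1.47, -1.11, -0.99, -0.43 and -1.76. Those of all features were then -0.18, -0.02, -0.22, -0.35 and -0.16, and those of the snoRNAs -0.88, -0.51, -0.91, -0.58 and -1.01. The 5 comparisons share the untreated libraries, so their common sign is not independent. Without NT-1 and without the block, over 31 mitochondrial genes, the medians were 0.16, 0.41, 0.41, 0.86 and -0.40, above 0 at 4 of the 5 times.

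The single genes below come from the fit without the block. Among the genes named by rule, those with the smallest p at 0.5 h were mt-Co2 (log2 change -3.34, edgeR adjusted p = 0.992), mt-Nd5 (-2.49) and mt-Co1 (-2.24). At 1 h they were mt-Nd5 (-1.70), mt-Co3 (-1.66) and mt-Co2 (-1.56), and at 3 h mt-Ty (-1.78), mt-Co3 (-1.70) and mt-Nd5 (-1.67). At 6 h they were mt-Co3 (-3.14), mt-Co2 (-1.51) and mt-Ti (-1.18), and at 24 h mt-Co1 (-2.63), mt-Co2 (-2.37) and mt-Co3 (-2.23). None passed, with adjusted p values of 0.895 or more by edgeR, and of 0.448 or more by edgeR with the block. For mt-Co2 and mt-Co3 each read also matched a nuclear transcript. mt-Co2, for example, had 25.04 RPM in NT-1 and between 0.914 (0.5h-2) and 5.78 (1h-1) RPM in the other 11 libraries.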

How the data were processed

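Total hippocampal RNA was size selected by gel and cloned with the Illumina small RNA kit, and the authors sequenced it on a Genome Analyzer IIx. Their miR-Intess pipeline (version not given in the sources used here) removed reads with a short insert or without adapter. The authors deposited, per library, unnormalized counts of accepted reads for each distinct insert of at least 18 nt, before alignment. These counts were matched here to GENCODE M21 transcripts (GRCm38) with no mismatch, tags in miRNA hairpins counting for miRNAs only. Tags with sequencing errors were thereby left out. No nuclear chromosomes were searched.

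Features with 10 counts in at least 2 libraries were tested with edgeR 4.0.16 (quasi-likelihood, TMM, Benjamini-Hochberg adjustment over all features) and, as an alternative, DESeq2 1.42.0. SEs were derived from the p value. Single values were compared by exact permutation tests. The matching and the fits were tested on simulated data. Groups came from the labels. The replicate number in the labels was taken as the time course, the meaning that the study's -1 and -2 suffixes have. For the untreated pair the study's own read counts give the other order, as described above. Same-numbered libraries deviated together from their time point means (15 pairs, r 0.456 to 0.773), so the numbers pair the libraries. Pairs with an untreated library, under its deposited number, are among these 15. The edgeR fits after ECS left this pairing out except where the block is named. The 2 libraries of each time point differed by more than sampling noise. Genes named with values were the 8 tRNA and 4 protein genes with the most reads and both rRNA genes. Fold changes were given for those called, or else for the 3 with the smallest p. Members, lists and tests were chosen with earlier results of these data known. Alternatives included other scaling, filters, tag lengths and leaving out each library.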

Additional observations from a re-analysis of the deposited data

Results flagged for a closer look

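Values far from the rest of their group of 6 libraries are given here without explanation. Of 44 groups examined, 14 held such a value, where chance would give about 1 in 20 (2.2), and in 13 of the 14 it was NT-1, so these flags are not independent.

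NT-1 had the highest share of accepted reads in time course 1 for the rRNA genes (0.0536%, others 0.00506% to 0.0176%) and for the protein genes (0.0177%, others 0.00152% to 0.00362%). Among single genes NT-1 stood out for mt-Rnr2 (0.0462%), mt-Rnr1 (0.00735%), mt-Tl1 (0.00972%), mt-Tq (0.00465%), mt-Tv (0.00335%), mt-Ti (0.00297%) and mt-Th (0.00288%). Among the protein genes it stood out for mt-Co1 (0.00463%), mt-Co2 (0.00250%), mt-Co3 (0.00196%) and mt-Nd5 (0.00142%). NT-1 also had the most tags of 18 to 19 nt, 49.0% of its accepted reads. mt-Ts2, the gene with the most reads, was not among these: 3h-1 (0.239%) lay nearest to NT-1 (0.310%).

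The library 3h-1 had 0.919 antisense reads per 100 sense reads, against 4.002 to 5.75 in the rest of time course 1. In 3h-1, 92.5% of the mitochondrial sense reads came from mt-Ts2, the highest share of the 12 libraries.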

How the results depend on the processing

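The share difference between the time courses turned to 0.0237 points with tags of 20 nt or more and was -0.0174 without mt-Ts2. Leaving out a library, which also drops its partner, gave -0.120 to -0.0593 points. The untreated minus ECS difference was -0.000327 points with tags of 20 nt or more, 0.0544 without mt-Ts2 and 1.15 on the log2 scale (both exact permutation p = 0.0556), and 0.0340 (without NT-1) to 0.297 (without NT-2) when 1 library was left out. The first-base share difference was -0.125 points without tags in nuclear transcripts, -1.19 with CCA, 19.99 without mt-Ts2, and -1.37 to 1.65 with 1 library left out. The mean length difference stayed between 1.13 and 1.52 nt, and between 1.29 and 1.66 nt with 1 time point left out, where p cannot pass. The 4 mitochondrial genes called between time courses stood among 215 called of 502 features. Over the same 502 the count became 26 of 269 called with the counted total, 8 of 257 with DESeq2 and 9 of 251 without time point in the model. With accepted reads as the library size it was 1 of 194 called. It was 8 of 165 called with tags of 1 gene only (422 features) and 1 of 255 without the count filter (1799 features). Leaving out 1 library gave 1 to 5, beside 133 to 193 features called. mt-Ts2 had edgeR adjusted p values of 0.0361 to 0.108 with 1 library left out, mt-Ta of 0.0286 to 0.132, mt-Nd2 of 0.0162 to 0.138 and mt-Tt of 0.0131 to 0.0489. After ECS the replicate block, which pairs libraries by time course, gave 0 edgeR calls at each of the 5 times, as without it. At unadjusted p under 0.05 it gave 30, 14, 36, 36 and 51 features, of which 5, 1, 5, 2 and 8 were mitochondrial. With DESeq2 the block gave 3 features at 3 h and 2 at 6 h, against 2 and 0 without it, and 0 mitochondrial genes. It changed no call of a mitochondrial gene. With 1 library left out, log2 changes ran from -2.46 to 0.21 (mt-Co3 at 1 h), -2.49 to 0.21 (mt-Co3 at 3 h), -3.02 to 0.41 (mt-Co2 at 1 h), -2.31 to 0.51 (mt-Co2 at 6 h) and -2.46 to 0.51 (mt-Ti at 6 h), each positive value being without NT-1, and for mt-Ti also without 6h-2 (0.07). The causes were not tested. Settings without mt-Ts2, without nuclear transcript matches and with accepted reads as the library size were chosen after seeing the data. A search of nuclear chromosomes was not run, nor was any comparison with the 2 untreated libraries exchanged between the time courses. Reads per gene limit the protein genes most.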

Other observations

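Antisense tags, which none of the sense counts above includes, numbered 3137 reads, 3.52 per 100 sense reads. Their largest group, 698 reads in 12 libraries, began just after the 3′ end of mt-Tq, on the strand of mt-Tq and opposite mt-Ti, and made up 83.2% of the antisense reads of mt-Ti. NT-1 held 279 of them. A tag of this kind, chrM:3753-3771 on the minus strand, had 306 reads.
Antisense to mt-Ti: aaataagagggcttgaacc

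A second group of 197 reads began just after the 3′ end of mt-Tt, on its strand and opposite mt-Tp (the proline tRNA), and made up 82.8% of the antisense reads of mt-Tp. It was found in 11 libraries, with at most 50 reads (0.5h-2). A further 172 reads crossed the border of 2 mitochondrial genes.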
